A study of Mus musculus with 13 samples.

Results

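The transcripts of 10 protein-coding genes, *Prpf8*, *Rsrc2*, *Rae1*, *Noc2l*, *Rfc3*, *Mib2*, *Ube2j2*, *Gaa*, *Mrpl20* and *1110059G10Rik*, were followed through RNA immunoprecipitation-sequencing (RIP-Seq) of the transcription factor OLIG2. Every site listed for these genes in the OLIG2 library or in its IgG control was taken, together with the histone and OLIG2 ChIP-Seq peaks at the genes. They are 10 of the 649 genes that have a site in either RIP-Seq list, and they were chosen from these RIP-Seq values, so their RIP-Seq values are a description and were not tested. They hold 988 distinct OLIG2 sites and 837 distinct IgG sites.

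The study followed the change from neural stem cells (NSCs) through oligodendrocyte precursor cells (OPCs) to newly formed oligodendrocytes (NFOs) in untreated mouse cells with no engineered allele. Each of the 13 samples is 1 library and no condition has a replicate, so no difference between libraries has a replicate check. The protocol gives the NSCs as cultured cells from the cortex of CD-1 mouse embryos (E14.5), whereas the strain label of all samples is C57BL/6. OPCs and NFOs were isolated from mouse brain by immunopanning, on antibodies to PDGFRα and to GalC respectively. The study's methods give these brains as postnatal day 7, so NSCs also differ from OPCs and NFOs in age and culture. The labels give NFOs as the source of both RIP-Seq libraries, the study's methods give NSCs, and which is right cannot be told apart from the lists. Of 38 marker genes of 7 brain cell types, 3 were in the RIP-Seq lists. These were *Mbp* of oligodendrocytes, with 1063 OLIG2 and 3030 IgG tags, *Rbfox3* of neurons, with 270 and 605, and *Flt1* of endothelial cells, with 4 and 7. No NSC, OPC, astrocyte or microglia marker was listed. Few genes are listed at all, 570 of 21911 protein-coding genes apart from the members. Which ones are listed follows their coordinates, as given below, so the markers listed or missing do not tell the cell type. The control library is called an input in its title and rabbit IgG in its antibody label, and the antibody label was followed. The titles of the H3K4me3 and H3K27me3 samples were followed where the antibody label named the other mark.

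OLIG2 is a basic helix-loop-helix factor of the oligodendrocyte lineage that binds DNA at E-boxes. In RIP-Seq, protein and RNA are cross-linked, the protein is pulled down with an antibody and the RNA that comes with it is sequenced, and an IgG that recognizes no cell protein gives the background. H3K4me3 is a histone mark of active or poised promoters and H3K27me3 a mark of Polycomb repression. The 10 genes work in separate parts of the cell: *Prpf8* encodes the core protein of the U5 spliceosome, *Rsrc2* an arginine/serine-rich protein and *Rae1* an mRNA export factor. *Noc2l* acts in the nucleolus and inhibits histone acetyltransferases, and *Rfc3* is a subunit of the clamp loader of DNA replication. *Mib2* is a ubiquitin ligase of the Notch pathway, *Ube2j2* a ubiquitin-conjugating enzyme of the endoplasmic reticulum, *Gaa* the lysosomal acid alpha-glucosidase and *Mrpl20* a protein of the large subunit of the mitochondrial ribosome. *1110059G10Rik* is known by its clone name.

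The sites with the highest OLIG2 to IgG ratio in 5 of the genes are shown first, because the ratio above 2 that defines an OLIG2 target in the study's methods rests on stretches as short as these. Each line gives 30 bases of the transcribed strand around the middle of a site, 5′ to 3′, from the RefSeq genome of GRCm38 (mm10), and capitals mark bases inside the site as the OLIG2 list gives it. All lie in coding sequence.
*Prpf8*, chr11:75508790-75508819, plus strand: TGACAGCCTACAAGCTGACACCCAGTGGGT
*Gaa*, chr11:119284522-119284551, plus strand: ggaGTGGCCACAGCTCCTACCCAGGTCctt
*1110059G10Rik*, chr9:122949023-122949052, minus strand: CCCAGATGAAGATGGCAATCACAGTGACAA
*1110059G10Rik*, chr9:122950808-122950837, minus strand: GGCTACAAGGAGGGGCCCACCGTAGAGACC
*Rae1*, chr2:173015297-173015326, plus strand: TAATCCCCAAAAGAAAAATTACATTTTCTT
*Mib2*, chr4:155657890-155657919, minus strand: gtgaCCTTGACACTGTGAAGCGACTTcagg
These stretches differ in base composition. The GC content of the whole site was 61.4% in *Prpf8* and 66.7% in *Gaa*, against 25.8% in *Rae1*, where 83.9% of the site is masked as repeat in the genome sequence.

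A site is a run of bases with at least 4 overlapping reads that the peak caller ASPeak listed, and its tags are the reads counted there. The lists contain sites with a p-value of at most 0.01 alone, so a position with no IgG site was not called in the IgG library and is not a measured 0. Both lists were of similar size. The OLIG2 list holds 45157 distinct sites with 1075509 tags and the IgG list 37248 sites with 1061581 tags, a ratio of 1.01. Since the library depth is not in the lists, tags were compared without scaling. Intervals of tag ratios are exact (Clopper-Pearson) 95% intervals that cover counting error only. A read that crosses several sites may be counted at each of them, and the intervals do not allow for this.

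Of the 10 genes, 9 had at least 1 site above the criteria of the study's methods, which ask for a tag fold-change over IgG above 2, an ASPeak p below 0.01 and a transcript RPKM above 1. The methods do not say how sites of the 2 libraries were paired. Here the tags of an OLIG2 site were divided by those of the called IgG sites that it overlaps. The study reports far fewer significant OLIG2 sites under the same thresholds than passed here. The pairing used here may therefore differ from the study's, and the counts of passing sites and genes hold for this pairing alone. Of the 613 genes of the OLIG2 list, 16.5% had a site above the criteria under this pairing. The rule chose the genes by this contrast, so nothing is read from the difference. In all, 49 sites passed, with 9 to 354 OLIG2 tags each and ASPeak p-values from 4.44e-16 to 0.00988. The lowest FDR that the list gives for any site of the 10 genes is an upper bound of 0.395. Only 283 of the 988 OLIG2 sites overlapped an IgG site, and the other 705 have no ratio. Among those that have one, the median ratio was 0.756, beside 0.759 over the 9136 such sites of all listed genes. Where several IgG sites overlapped 1 OLIG2 site, their tags were summed. Such IgG sites can be nested and may hold the same reads, which lowers the ratio of a single site. Pooled over the overlapping sites of the 10 genes, the ratio was 1.13. The lowest ratios above 2 were 2.08 in *Rsrc2* and 2.10 and 2.12 in *Mib2*, and the highest at or under it were 2.00 and 1.89 in *Rsrc2* and 1.83 in *Ube2j2*.

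The same criteria were also read the other way, with IgG sites over the overlapping OLIG2 sites. All 10 genes then had a site above them, beside 19.1% of the 618 genes of the IgG list. There were 56 such IgG sites, against 49 OLIG2 sites. The 2 directions were uneven between genes. *Mib2* had 11 sites with more OLIG2 and 5 with more IgG, and *Rae1* had 8 and 5. *Rsrc2* had 3 with more OLIG2 and 14 with more IgG. *Mrpl20* had none and 1. The highest ratio of IgG to OLIG2 was 20.3, in *Noc2l*, where 81 IgG tags at chr4:156244042-156244053 met 4 OLIG2 tags. Over all listed genes 101 had a site above the criteria in the OLIG2 direction, 118 in the IgG direction and 95 in both.

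**Figure D1:**
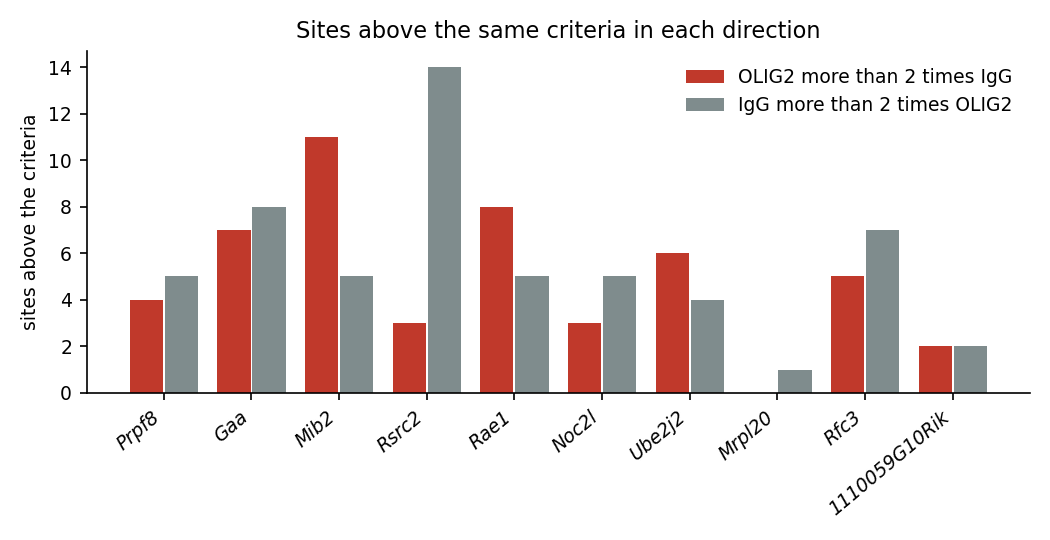
Number of sites per gene above the same criteria in each direction, with OLIG2 more than 2 times the overlapping IgG sites in red and IgG more than 2 times the overlapping OLIG2 sites in grey, 1 library each. *Mib2* has 11 red and 5 grey sites and *Rsrc2* 3 and 14, and *Mrpl20* has no red site.

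Summed over all distinct sites, the 10 genes had 17788 OLIG2 tags and 15322 IgG tags, a ratio of 1.16 (95% interval 1.14 to 1.19). OLIG2 tags were more numerous in 8 of the 10, whereas 39% of the 582 genes with sites in both lists had more OLIG2 than IgG tags. The interval lay above 1 in 6 of the 10 genes, beside 23.4% of those 582 genes, and below 1 in 2, *Rsrc2* and *Rfc3*. These counts too come from the contrast that chose the genes. The median ratio of the 10 was 1.21, and that of the 582 genes was 0.930 with a 10th to 90th percentile range of 0.490 to 1.38. With the maximum height of each site, the deepest coverage within it, in place of its tags, the pooled ratio was 1.02 (0.989 to 1.05).

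**Figure D2:**
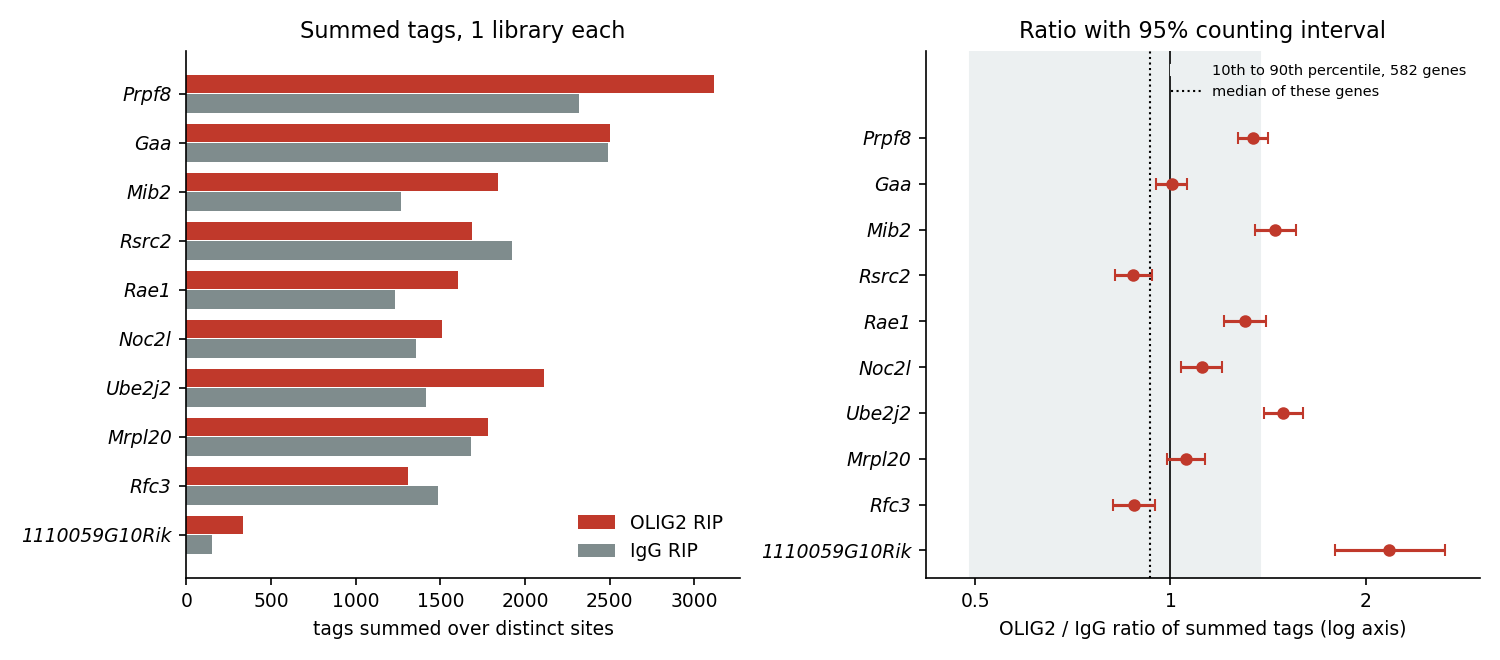
Left, tags summed over the distinct sites of each gene in the OLIG2 (red) and IgG (grey) libraries, 1 library each. Right, their ratio on a log axis with its 95% counting interval, over the 10th to 90th percentile of 582 listed genes (0.490 to 1.38, shaded) and their median (0.930, dotted). *Mib2*, *Ube2j2* and *1110059G10Rik* lie above the shaded range, and *Rsrc2* and *Rfc3* lie below 1.

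*1110059G10Rik* had the highest ratio of the 10 and the fewest tags, with 335 OLIG2 and 154 IgG tags (2.18, interval 1.79 to 2.65). The pair of 37-base sites shown above, in separate coding exons, had 97 OLIG2 tags and 5 IgG tags apiece and together held 57.9% of its OLIG2 tags, the highest share in passing sites of the 10 genes. Their counts were equal in both libraries, and whether the same spliced reads were counted at both was not tested. They held 6.49% of its IgG tags. By maximum height the ratio of the gene was 1.25, and over overlapping sites alone it was 3.37. Pairs of passing sites with equal counts in both libraries also lay in *Rae1*, *Rfc3* and *Mib2*. They had 12 OLIG2 and 4 IgG tags, and 27 and 5, in *Rae1*, 39 and 10 in *Rfc3* and 36 and 12 in *Mib2*. Whether these pairs hold the same reads was not tested either, so the 49 passing sites may not all be separate.

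Of the 3 genes of RNA handling, *Prpf8* had the most tags of all 10, 3113 with OLIG2 and 2320 with IgG (1.34, 1.27 to 1.42). Its 4 sites above the criteria lay within the last exons, about 22 kb from the gene start. The strongest, 70 bases at chr11:75508770-75508839, had 354 OLIG2 tags and 14 IgG tags, a ratio of 25.3. The next, at chr11:75508613-75508660, had 295 and 19. Between these and the third, with 125 and 17, lay the highest IgG site of the gene, with 218 IgG tags against 159 OLIG2 tags. The 4 sites held 25.5% of its OLIG2 tags and 2.50% of its IgG tags. Over overlapping sites alone the ratio of *Prpf8* was 2.05.

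*Rae1* had 1604 OLIG2 and 1230 IgG tags (1.30, 1.21 to 1.41). Its highest ratios were 12.4 and 12, from 62 and 60 OLIG2 tags over 5 IgG tags, and its site with the most tags had 114 over 33. *Rsrc2* had more IgG than OLIG2 tags, 1922 against 1684 (0.876, 0.820 to 0.936), although a site of 99 OLIG2 and 36 IgG tags passed the criteria. Its coding sequence was level, with 1447 and 1450 tags, and the lower ratio came from its 3′ UTR, with 130 and 285 (0.456), and its introns, with 25 and 89 (0.281).

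*Noc2l* had 1512 OLIG2 and 1354 IgG tags (1.12, 1.04 to 1.20). This direction was not kept in every reading: the ratio was 0.914 by maximum height and 0.915 over overlapping sites. Its largest site, chr4:156246702-156246728, had 204 OLIG2 tags and no overlapping IgG site, so it has no ratio. The best site with a ratio had 87 and 27 tags (3.22). Of its 87 OLIG2 sites, 6 are also listed for *Samd11*, which runs on the opposite strand, and as the counting used no strand the reads of the 2 genes cannot be told apart there. *Rfc3*, the other gene of the nucleus, had 1306 OLIG2 and 1486 IgG tags (0.879, 0.815 to 0.947) with 5 sites above the criteria, the strongest with 35 tags over 5. In this gene 99.3% of the OLIG2 tags lay in coding sequence.

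Both ubiquitin genes had more OLIG2 than IgG tags. *Ube2j2* had 2110 and 1413 (1.49, 1.40 to 1.60), and *Mib2* 1842 and 1269 (1.45, 1.35 to 1.56). The coding sequence of *Ube2j2* had a ratio of 1.68 and its 3′ UTR one of 0.742. Its highest site, chr4:155951478-155951508, reached a maximum height of 101, with 236 OLIG2 and 86 IgG tags. By maximum height over all its sites the ratio of *Ube2j2* was 1.07. In *Mib2* the coding sequence had 1774 and 1125 tags and the 5′ UTR 43 and 100. Several of the 11 passing sites of *Mib2* are nested, since transcripts of different extent list overlapping sites, and with overlapping sites merged its ratio was 1.22.

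The 2 organelle genes had near equal sums of tags. *Gaa* had 2501 OLIG2 and 2491 IgG tags (1.0, 0.949 to 1.06) and *Mrpl20* 1781 and 1683 (1.06, 0.989 to 1.13). Within *Gaa* the libraries differed from site to site. At chr11:119284525-119284548, the site shown above, there were 127 OLIG2 and 6 IgG tags, while just downstream a site of 99 OLIG2 tags overlapped 114 IgG tags. *Mrpl20* had no site above the criteria, and its highest ratio was 1.0. The 3 exons that carried most of its tags had high sites in both libraries. The highest OLIG2 site had 154 tags, against 185 IgG tags, and the highest IgG site, in another of these exons, had 204 tags. With sites matched within each transcript, *Mrpl20* also had a site above 2. By maximum height over all its sites the ratio of *Mrpl20* was 1.42 (1.26 to 1.60), from 637 with OLIG2 and 449 with IgG.

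**Figure D3:**
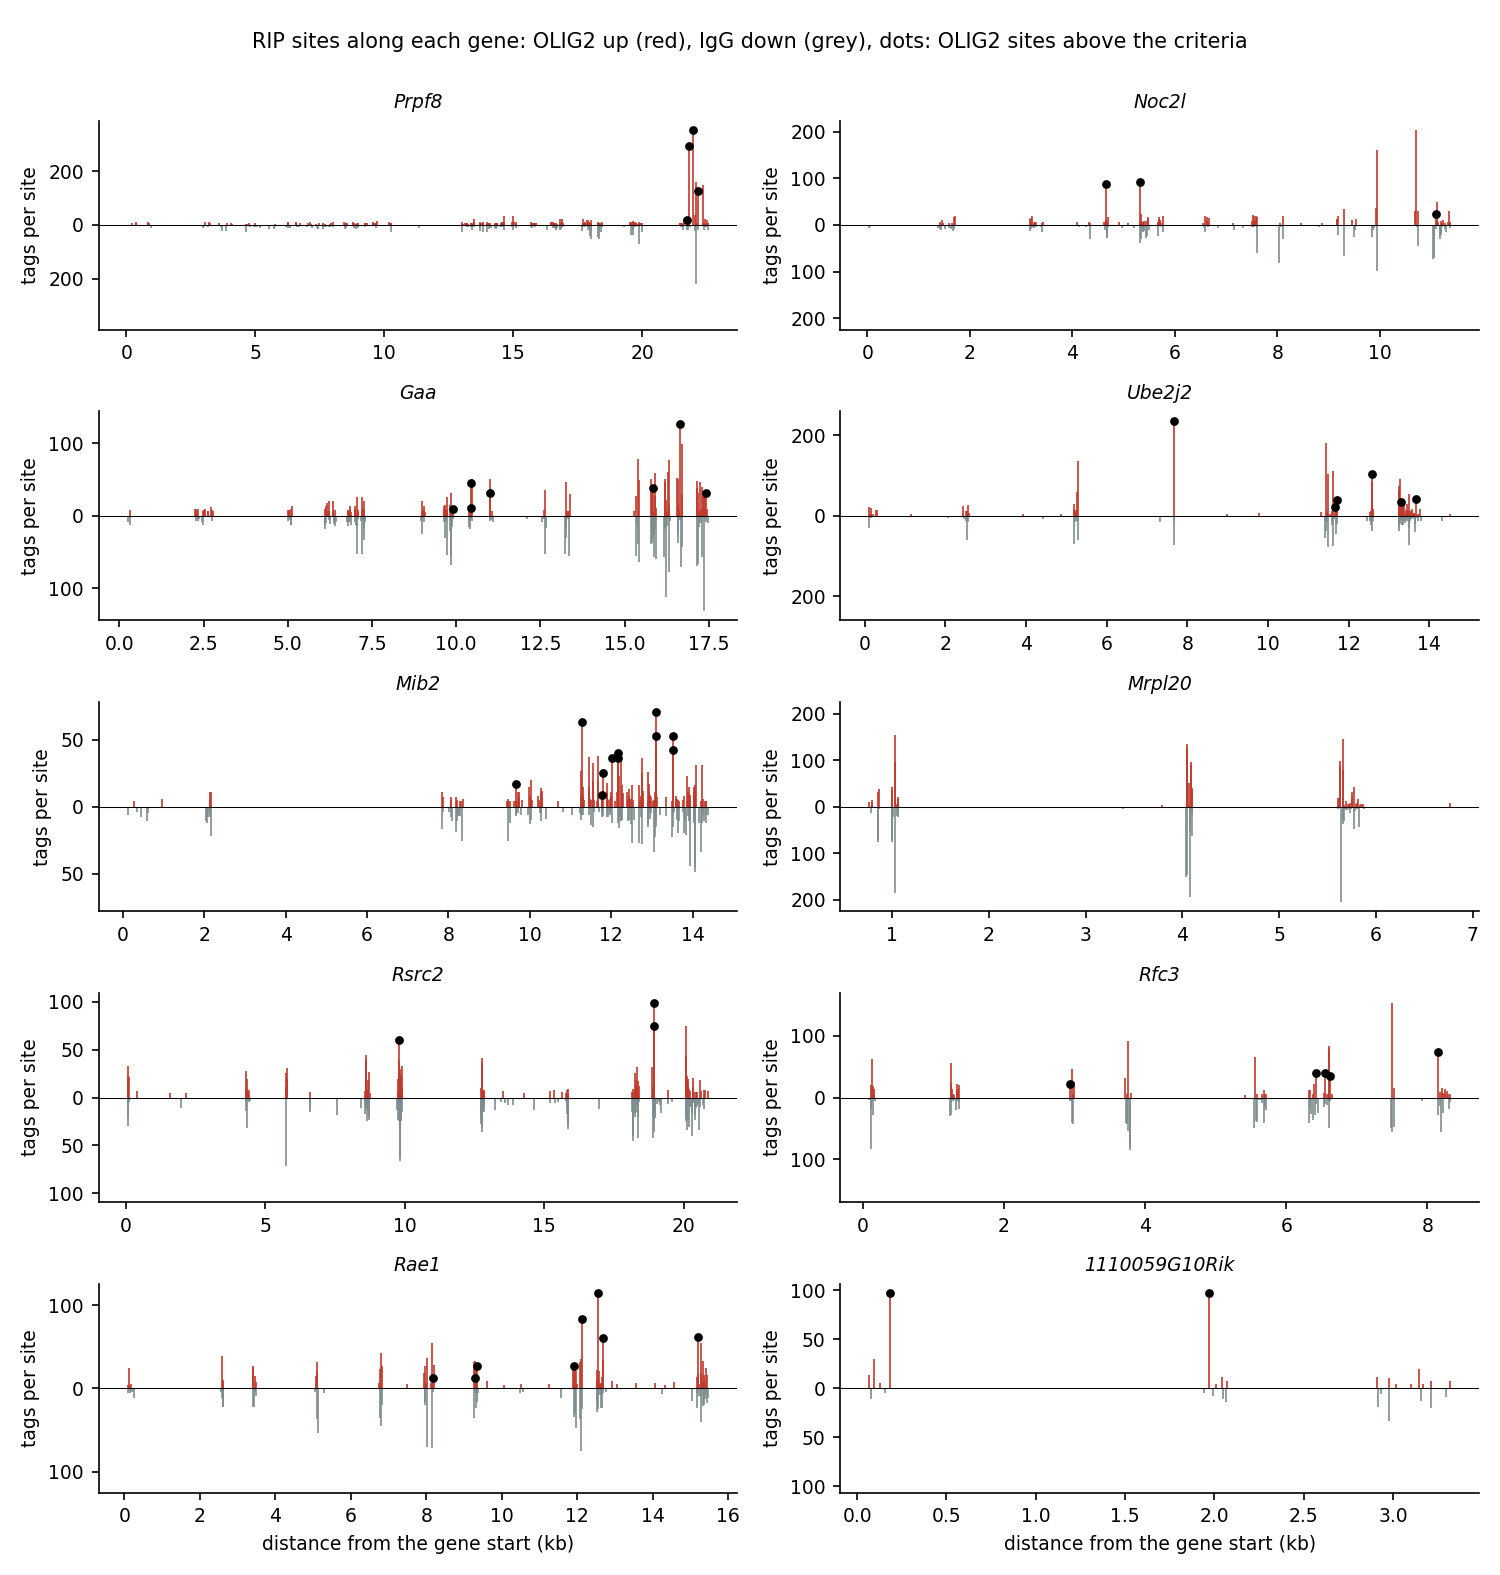
Tags of every distinct site by distance from the gene start in kb, OLIG2 upward in red and IgG downward in grey, on 1 scale per gene. Black dots mark the 49 OLIG2 sites above the criteria. In *Prpf8* the 4 dots lie at about 22 kb, and in *1110059G10Rik* the pair with 97 tags each stands out, while *Mrpl20* has none.

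By part of the transcript, 91.2% of the OLIG2 tags of the 10 genes lay in coding sequence, at 795 tags per kb against 659 for IgG (ratio 1.21, 1.18 to 1.23). In their 3′ UTRs the ratio was 0.885 (0.812 to 0.964), from 1006 OLIG2 and 1137 IgG tags, in 5′ UTRs 0.908 (0.783 to 1.05) and in introns 0.603 (0.497 to 0.730). Of the 49 sites above the criteria, 47 lay in coding sequence and the other 2 in 3′ UTRs, of *Gaa* and *Ube2j2*. Over all listed genes the ratio was 1.01 in coding sequence, 1.1 in 3′ UTRs and 0.983 in introns, and 341 of 553 passing sites were coding. The maximum height in coding sequence of the 10 genes was 101 with OLIG2 and 65 with IgG.

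The sites of the 10 genes were more exonic than those of the other listed genes, with 96.8% of OLIG2 sites in exons against 64.9%. The IgG sites of the same genes were alike in this, at 95.9%. Among OLIG2 sites above the criteria, 100% were exonic in the 10 genes and 96.8% in the other listed genes, so exonic position is not particular to the 10. GC content over 101 bases was 52.5% at the median for both libraries in these genes and 49.5% at the OLIG2 sites of other genes. The RPKM that the lists give for the transcripts of the 10 genes ran from 0.588 to 4.95.

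The 10 genes lie on chromosomes 2, 4, 5, 9 and 11. Of these, *Mib2*, *Mrpl20*, *Ube2j2* and *Noc2l* lie within 592940 bases near the end of chromosome 4, chr4:155654677-156247616, where 28 of 33 protein-coding genes are listed and where 14 of the 101 genes with a passing site lie. Genes with a passing site within 50 kb of *Mrpl20* were *Atad3a*, with 8, *Mxra8*, with 3, and *Vwa1*, *Gm26840* and *Dvl1*, with 1 each. *Cdk11b* had 9 beside *Mib2*, where *Gm10563* had 3 and *Slc35e2* and *Ssu72* had 1 each. *Agrn* had 25 beside *Noc2l*, and *Acap3* and *Sdf4* had 4 and 2 beside *Ube2j2*. The summed ratios of these 12 neighbors ran from 0.551 in *Dvl1* to 1.29 in *Vwa1*.

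The lists as deposited cover few transcripts, and which ones follows their coordinates. Of 3758 annotated transcripts that span a multiple of 1048576 bases on their chromosome, 1029 are listed, and *Noc2l*, *Prpf8*, *Rae1* and *Rsrc2* are of this kind. *Rfc3* lies in the last block of that size on its chromosome, where 324 of 776 transcripts that span no such multiple are listed. The other 5 genes lie in the last block of 8388608 bases, where 482 of a further 5070 are. Of 89376 transcripts that span no such multiple and end before the last block of 67108864 bases, 1 is listed. A gene not listed was therefore not necessarily without reads, and no rank of the 10 genes among all mouse transcripts can be given.

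This bears on the genes that work with the members. In 9 lists of partner genes, from the tri-snRNP to the mitochondrial ribosome, 3 of 122 genes other than the members had any site. Among all 21911 protein-coding genes, 570 other than the members were listed. None of the 3 could pass the criteria whatever its tag ratio, because these ask for an RPKM above 1. The highest RPKM listed was 0.482 for *Prpf6*, 0.0542 for *Rsrc1* and 0.019 for *Neurl1a*. *Prpf6*, which joins PRPF8 in the tri-snRNP, had 2510 OLIG2 and 2928 IgG tags. *Rsrc1*, an SR-related splicing protein, had 855 and 892, and *Neurl1a*, a ubiquitin ligase that acts on Notch ligands, 76 and 131.

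The ChIP-Seq libraries were not used to choose the genes. All 10 had an H3K4me3 peak within 2 kb of a transcription start site (TSS) in NSCs and in OPCs, where 62.7% and 60.5% of 21911 protein-coding genes had one, and 86.5% and 87.5% of the other listed protein-coding genes. In NFOs 7 of the 10 had one, beside 38.6% of protein-coding genes and 57.7% of the other listed genes, and 4 of the 10 had one when the fold enrichment had to exceed 5 in place of 3.5. None had an H3K27me3 peak near a TSS in any cell type, with or without the filter on FDR and fold enrichment. Of all protein-coding genes, 9.51% carried H3K27me3 in NSCs, and the shares for OPCs and NFOs were 12.8% and 7.68%. Among the other listed genes they were 13.2%, 17.9% and 12.6% in the same order.

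The fold enrichment of H3K4me3 in NSCs ran from 5.53 in *Gaa* to 14.2 in *1110059G10Rik*, with a median of 9.18, against 8.53 over all protein-coding genes with a peak. In OPCs it ran from 4.26 in *Gaa* to 10.2 in *Prpf8*, with a median of 7.18. In NFOs *Gaa* and *Rae1* had no listed peak near a TSS and that of *Prpf8*, at 3.19-fold, was under the threshold of 3.5. *Rsrc2* and *Noc2l* had their highest values there, 15.7 and 15.4. In each cell type the peaks of *1110059G10Rik*, *Noc2l* and *Rsrc2* also lay near a TSS of *Kif15*, *Plekhn1* and *Kntc1* respectively. Their values cannot be credited to the member alone. The median width of the widest peak was 327 bases among the 7 genes in NFOs and 2860 among the 10 in NSCs. Over all protein-coding genes with a peak the median widths were 601 and 2188. As a check of the cell types, H3K4me3 lay at 7 of 7 NSC markers and at 4 of 4 OPC markers, both in NSCs and in OPCs. These counts therefore do not separate NSCs from OPCs. Of 8 oligodendrocyte markers, 1 had H3K4me3 in NFOs, beside 2 in NSCs and 3 in OPCs. The NFO library also had fewer H3K4me3 peaks at the NSC markers (4 of 7), the OPC markers (3 of 4) and the neuronal markers (3 of 5, against 5 in NSCs and in OPCs), so these counts do not settle its label. Differences between cell types and between libraries cannot be told apart with 1 library each.

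OLIG2 ChIP-Seq peaks lay within 5 kb upstream or in the body of 4 of the 10 genes in OPCs and 1 in NFOs, where 15% and 25% of protein-coding genes had one. Of the other protein-coding genes of the RIP-Seq lists, 37% and 52.1% had one. *Rsrc2* was the gene with a peak in both cell types. Its peak lay 63 bases upstream of the TSS, at 18.9-fold enrichment in OPCs and 21.1-fold in NFOs, at a promoter that *Rsrc2* shares with the divergent gene *Kntc1*. A further NFO peak of *Rsrc2*, at 7.55-fold, was nearer the start of *Kntc1*. In OPCs *Gaa* had a peak at 14.4-fold, 807 bases upstream, and *Mrpl20* had 2 upstream peaks, at 12.1-fold and 8.60-fold. The OPC peak of *Prpf8*, at 7.62-fold, lay in the gene body 17032 bases from the start, away from the RIP-Seq sites above the criteria, and the nearest TSS was that of *Rilp*. The 4 genes with an OLIG2 ChIP-Seq peak had RIP-Seq tag ratios of 0.876 (*Rsrc2*), 1.0 (*Gaa*), 1.06 (*Mrpl20*) and 1.34 (*Prpf8*). The 3 genes with the highest tag ratio, *1110059G10Rik*, *Ube2j2* and *Mib2* had no OLIG2 peak above the criteria in either cell type. *Ube2j2* had a peak at 3.56-fold in NFOs, under the threshold of 5. The samples include no OLIG2 ChIP-Seq library of NSCs, which the study's methods give as the source of the RIP-Seq. Whether OLIG2 binds at these genes in NSCs cannot be told from the peaks used here.

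**Figure D4:**
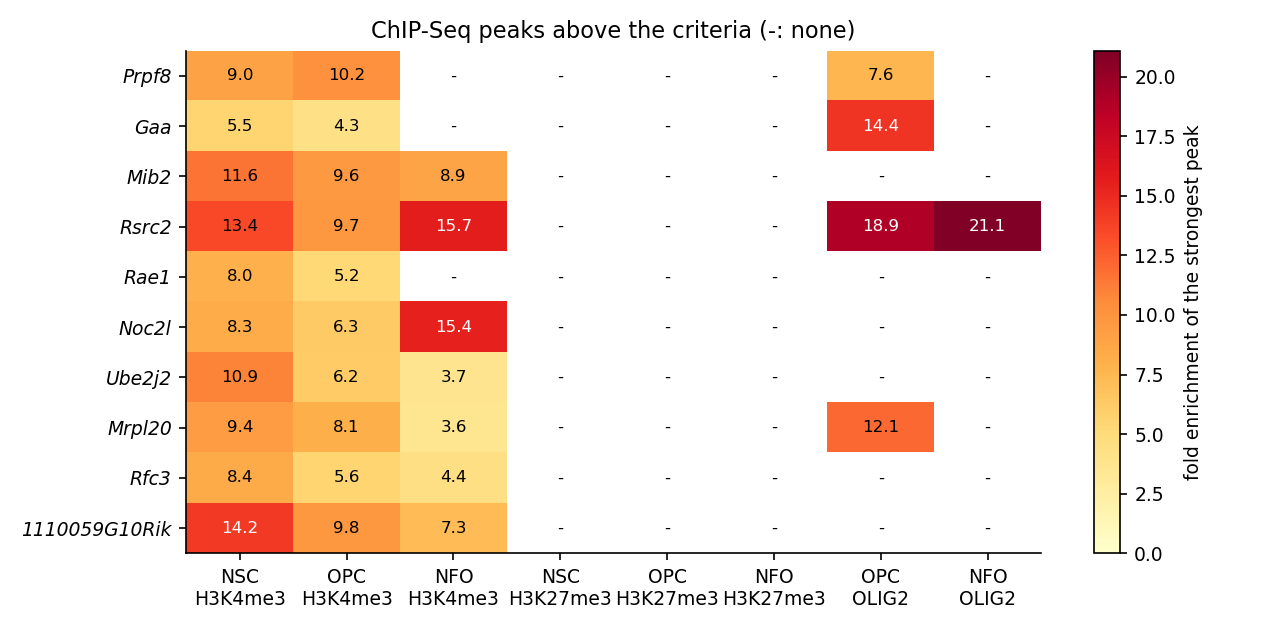
Fold enrichment of the strongest peak above the criteria at each gene in 8 ChIP-Seq libraries (H3K4me3 and H3K27me3 within 2 kb of a TSS, OLIG2 within 5 kb upstream or in the gene body), with a dash where there is none. H3K4me3 fills the NSC and OPC columns, all 3 H3K27me3 columns are empty, and OLIG2 is highest at *Rsrc2*, 18.9 in OPCs and 21.1 in NFOs.

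The summit sequences of the OLIG2 peaks show whether the E-box letters CANNTG, which read alike on both strands, lay at the point of highest enrichment. Shown are 30 bases of the plus strand of GRCm38 around the summits at *Rsrc2* and at the stronger of the *Mrpl20* peaks, with CANNTG in capitals.
*Rsrc2*, chr5:123749462-123749491: cttgctgggagaaaaagtgggtggcgataa
*Mrpl20*, chr4:155802449-155802478: ggatcgaaggCATGTGccaccacCATCTGg
The window at *Mrpl20* held 2 copies, and those at *Rsrc2*, which were the same in OPCs and NFOs, held none. Over all peaks above the criteria, 15.8% of 6566 windows in OPCs and 14.4% of 14076 in NFOs held CANNTG. The summits at *Gaa* and *Prpf8* and the other ones at *Mrpl20* and *Rsrc2* held none.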

How the data were processed

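Sites of 2 RIP-Seq libraries and peaks of 8 ChIP-Seq libraries were analyzed at 10 genes. The 3 input DNA libraries were not used. The 10 genes and the lists of partner and marker genes were chosen with earlier results of these data known. The genes named beside the members were the list genes with RIP-Seq sites and genes with a passing site within 50 kb. Genes overlapping a member's site and those nearest the OLIG2 ChIP-Seq peaks were named too. *Kntc1*, *Kif15* and *Plekhn1* were also named for peaks they share with members, after the values were seen.

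The authors called RIP-Seq sites with ASPeak, using NSC RNA-Seq for its parameters and the IgG library as control. The deposited tag counts are whole reads per site without normalization, the maximum height is the coverage signal the authors list for each site, and the p-value and the transcript RPKM come from the authors' ASPeak run. Versions are not given in the sources used here. The FDR bounds in the OLIG2 list are also the authors'. Per the labels, ChIP-Seq reads were mapped to mm10 (GRCm38) with Bowtie2. The authors called histone peaks with MACS2 as broad peaks and OLIG2 peaks with SPP, and removed blacklisted regions. The deposited fold enrichment is a ratio over the control, and the significance is given as the −log10 FDR that the authors' peak callers wrote.

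A site listed for several transcripts of a gene was counted once by position and strand. OLIG2 and IgG sites of 1 gene were matched by an overlap of at least 1 base. Sites were placed in coding sequence, UTR or intron by their weighted center in GENCODE M21. Start was read as 0-based. Of 8952 sites at least 5 bases wide, 75 then began on the first base of an exon and 3 began 1 base before it. Site ends, which read alike either way, fell on the last base of an exon at 188 sites and 1 base beyond it at 3. The thresholds are those of the study's methods: a tag ratio above 2, p below 0.01 and RPKM above 1; an FDR below 0.05 with a fold enrichment above 3.5 for histone marks and above 5 for OLIG2. Python scripts used pandas, scipy and pysam. Matching and intervals were tested on simulated data. Alternatives changed the thresholds, the scaling, the measure and the matching. With 1 library per condition, no test between conditions was possible.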

Additional observations from a re-analysis of the deposited data

How the results depend on the processing

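Under 8 alternatives, 7 to 10 of the 10 genes had a RIP-Seq site above the criteria: 7 with a tag ratio above 4, 7 with a p-value below 0.001, 8 by maximum height and 10 with OLIG2 sites that lack an IgG site counted. Matching within each transcript, chosen after seeing the data, also gave 10. The pooled tag ratio of 1.16 stayed above 1 in each reading but moved beyond its counting interval in 4. It was 1.02 by maximum height, 1.13 over overlapping sites alone, 1.06 without the largest OLIG2 site of each gene, which leaves the IgG tags as they are and so can only lower it, and 1.12 with overlapping sites merged, also chosen after seeing the data. Scaling by total tags gave 1.15. Of 50 ratios of single genes under these readings, 28 stayed within the interval of the reported ratio and the others moved out of it. Among genes whose interval excludes 1, those that crossed 1 were 3 ratios of *Noc2l*, at 0.914, 0.915 and 0.966 in place of 1.12, by maximum height, over overlapping sites and, lower by construction, without the largest site. The ratios of *Gaa* and *Mrpl20*, whose intervals include 1, also fell below 1 in some readings, to 0.878 and 0.952 at the lowest. By maximum height that of *Mrpl20* rose instead, to 1.42 (1.26 to 1.60). The count of genes with H3K4me3 in NFOs fell from 7 to 4 when the fold enrichment had to exceed 5, and that with an OLIG2 peak in NFOs rose from 1 to 2 with all listed peaks. The other ChIP-Seq counts stayed within 1.5 times. The cause of these changes was not tested. No paired analysis was possible because each condition has 1 library. The depth of the libraries is unknown, sites under the listing threshold are not in the lists, and tags near 4 per site leave wide intervals for single-site ratios.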
